A study of Arabidopsis thaliana with 45 samples.

Results

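Plants read nitrate through a small set of transcription factors, some of which act on nitrate-responsive genes and some of which are themselves induced by nitrate, and 10 such loci of Arabidopsis thaliana are described here. They are 3 LOB domain repressors, LBD37 (AT5G67420), LBD38 (AT3G49940) and LBD39 (AT4G37540), 4 GARP repressors, HRS1 (AT1G13300), HHO1 (AT3G25790), HHO2 (AT1G68670) and HHO3 (AT1G25550), and 3 NIN-like proteins, NLP6 (AT1G64530), NLP7 (AT4G24020) and NLP8 (AT2G43500). They were chosen by name, by a list that uses no measured value but was drawn up with earlier results of these data known. All 10 are among the 27587 loci of the deposited table, with the transcripts of a locus summed. A filter on low counts kept 18066 loci for testing, among them 8 of the 10. HRS1 and HHO1 did not pass it. In the TAIR10.1 annotation the LOB domain genes lie at chr5:26903866-26906524 (LBD37, minus strand), chr3:18514266-18516131 (LBD38) and chr4:17639393-17640925 (LBD39, minus strand). The GARP genes lie at chr1:4556878-4558793 (HRS1), chr3:9413052-9415240 (HHO1), chr1:25781801-25784118 (HHO2) and chr1:8976326-8978305 (HHO3), and the NLP genes at chr1:23959627-23963083 (NLP6), chr4:12479528-12484049 (NLP7) and chr2:18061716-18066708 (NLP8). No exon of another annotated gene overlaps theirs on either strand.

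RNA of whole seeds of the Col-0 accession was sequenced to ask what nitrogen compounds do in imbibed seeds with defects in glucosinolate synthesis. The labels name a double mutant in CYP79B2 and CYP79B3 (cyp), a double mutant in MYB28 and MYB29 (myb), a line with all 4 mutations (qko) and the wild type (WT). CYP79B2 and CYP79B3 are the enzymes at the start of the indolic glucosinolate pathway, and the transcription factors MYB28 and MYB29 activate the aliphatic branch. Seeds of each genotype were imbibed for 6 h in 10 mM KNO3, in 8 µM KSCN or in water, or were taken dry. KNO3 supplies nitrate, and KSCN supplies thiocyanate, a breakdown product of glucosinolates. The 45 libraries make 16 groups, of which 13 hold 3 libraries and 3 hold 2 (cyp in KSCN, myb in KNO3 and myb dry).

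Each library held 18097331 to 22910834 estimated counts, and the lowest total was that of replicate 7 of qko in KNO3. In each mutant line at least 1 targeted gene had more counts than in WT, so the counts do not bear the labels out. CYP79B2 in qko in water and MYB28 in all groups were not above WT. At no more than 5 counts per library in WT, these genes could not have shown a loss. In water CYP79B3 averaged 3.47 CPM (counts per 1000000, scaled to the library) in cyp and 0.850 CPM in qko, 85 to 124 and 13 to 24 counts per library, against 0.180 CPM in WT, 3 to 5 counts. CYP79B2 had 8 to 15 counts per library in cyp and 0 in qko, against 0 to 2 in WT. MYB29 had 4 to 6 counts per library in myb and 1 to 3 in qko, against 0 in WT, was also counted in both lines in KNO3 and KSCN (1 to 14 counts per library), and was at 0 in all cyp, WT and dry libraries. MYB28 had 0 counts in all groups. Genotype names below are therefore those of the labels, and each direction drawn for cyp, myb or qko is that of the libraries labelled so. The 12 seed storage and oil body markers were present in every group, and their share of all counts differed between genotypes. In water they took 1.98 to 3.04% of counts in cyp, 6.64 to 7.03% in myb, 4.64 to 5.94% in qko and 11.3 to 11.5% in WT. In dry seeds they took 11.1 to 11.5% in cyp, 16.2 to 16.4% in myb, 14.0 to 15.4% in qko and 20.2 to 22.0% in WT. The 4 green tissue markers took at most 0.0183% of counts in any library and the 5 seed coat markers at most 0.00192%. Earlier work on these data found the imbibed libraries of cyp replicate 8 and the libraries of qko replicate 7 to stand apart. Among the members, qko replicate 7 had the lowest NLP7 and the highest LBD39 of its group in all 3 imbibed treatments, and values without these libraries are given where a result rests on them. No label ties the replicates to separate mother plants or seed lots, so p-values measure only the spread between these libraries.

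Nitrate acts in plants both as a nutrient and as a signal. NLP7 is a transcription activator that binds nitrate, is held in the nucleus when nitrate is present, and switches on the primary nitrate response; NLP6 is its close relative, and NLP8 is the family member known for nitrate-promoted seed germination. HRS1 and the HHO proteins are induced by nitrate and repress genes of nitrate and phosphate starvation, and the LBD37 group is induced by nitrate and represses anthocyanin synthesis and genes of nitrogen uptake. In short, the NLP proteins stand early in the response and the LBD and HHO proteins are among its targets and brakes.

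Levels of different genes were compared as CPM per kb of exon, which corrects for length. In imbibed WT seeds (water), NLP8 was highest at 48.7 ± 6.89 CPM per kb (SD, n = 3), followed by NLP7 at 20.2 ± 1.64, HHO2 at 12.2 ± 0.513 and LBD39 at 9.15 ± 0.725. The libraries of these 4 did not overlap in level. Next came NLP6 at 2.84 ± 0.251, LBD37 at 2.51 ± 0.548 and HHO3 at 2.19 ± 0.513 CPM per kb, and the ranges of these 3 overlapped. LBD38 was lowest at 0.134 ± 0.0381 CPM per kb, a few counts per library.

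Some other groups differed in order or spacing. In imbibed cyp seeds NLP8 stood at 51.7 ± 2.09 CPM per kb, with NLP7 at 7.09 ± 1.03 and HHO2 at 5.16 ± 0.684 far below it. In imbibed qko seeds HHO3 (3.13 ± 0.266 CPM per kb) was above LBD39 (1.39 ± 0.46), the reverse of their order in WT. In dry myb seeds HHO2 (31.5 ± 0.912, n = 2) was above NLP7 (20.1 ± 0.574) and NLP8 (19.4 ± 0.718), and in dry qko seeds HHO2 (46.3 ± 2.0, n = 3) was above NLP7 (23.2 ± 1.41) and NLP8 (21.8 ± 0.245). In dry WT seeds NLP8 (54.5 ± 1.76) and HHO2 (49.7 ± 2.01) led, and LBD37 and LBD38 had 0 to 3 counts per library. NLP8, HHO2 and NLP7 were the 3 most abundant members in dry seeds of every genotype.

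**Figure D1:**
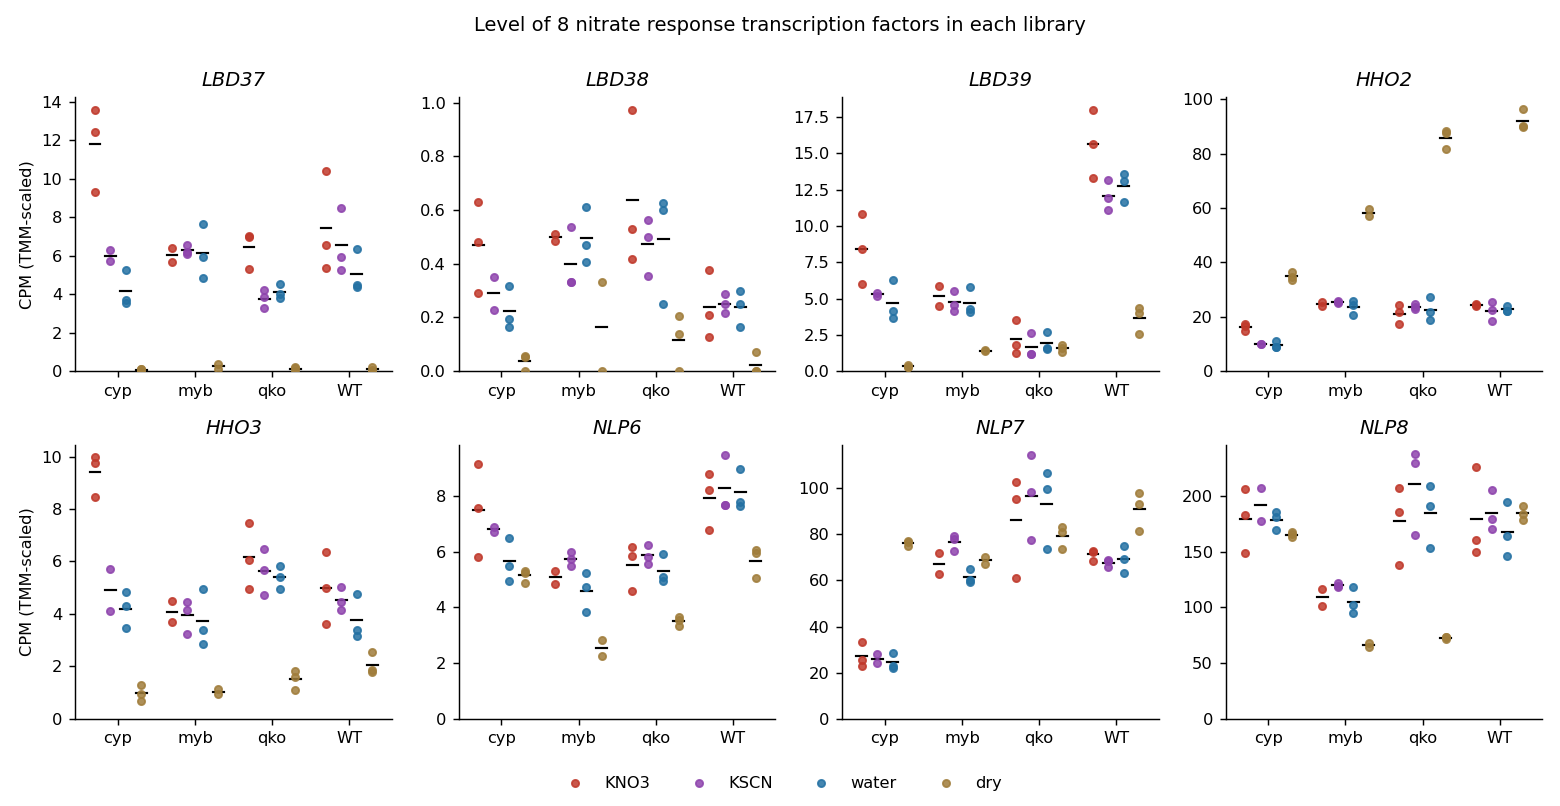
Level of each of the 8 tested members in CPM (counts per 1000000, TMM-scaled library sizes) in all 45 libraries. Points are libraries, black lines group means, and groups run over KNO3, KSCN, water and dry within cyp, myb, qko and WT. LBD37 lies between 0 and 0.375 CPM in dry seeds and between 3.28 and 13.6 CPM in imbibed seeds, and HHO2 is highest in dry seeds of every genotype.

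HRS1, the founding member of the GARP repressors and known in seedling roots as a nitrate-induced repressor, had 0 counts in all 45 libraries. HHO1, its close relative, had 2 counts in all, 1 in a library of myb in KNO3 and 1 in a library of WT in KNO3. A count of 0 allows up to 3 counts per library, which is 0.0948 to 0.219 CPM, and this limit covers counting error only. Neither gene was therefore detectable at this depth after 6 h of imbibition, with or without nitrate. The related HHO2 and HHO3 were counted in every library.

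The promoters of the 4 GARP genes and of LBD37, the member that gained most with KNO3 below, differ in letters between the undetected pair and the rest. A link between these letters and the counts was not tested. They are the 300 bases before the annotated gene start in the RefSeq annotation of TAIR10.1, on the coding strand, at chr1:4556578-4556877 (HRS1, plus strand), chr3:9412752-9413051 (HHO1, plus strand), chr1:25781501-25781800 (HHO2, plus strand), chr1:8976026-8976325 (HHO3, plus strand) and chr5:26906525-26906824 (LBD37, minus strand, a window that overlaps an exon of AT5G09915). Capitals mark GAATC on either strand and the palindrome GAATATTC, both known as letters that HRS1 and HHO proteins bind.
HRS1: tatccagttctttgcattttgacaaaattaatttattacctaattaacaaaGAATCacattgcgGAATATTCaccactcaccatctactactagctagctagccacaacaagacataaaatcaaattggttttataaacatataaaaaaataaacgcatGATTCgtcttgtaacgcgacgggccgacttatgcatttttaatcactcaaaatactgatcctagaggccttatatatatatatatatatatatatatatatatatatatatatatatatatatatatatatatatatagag
HHO1: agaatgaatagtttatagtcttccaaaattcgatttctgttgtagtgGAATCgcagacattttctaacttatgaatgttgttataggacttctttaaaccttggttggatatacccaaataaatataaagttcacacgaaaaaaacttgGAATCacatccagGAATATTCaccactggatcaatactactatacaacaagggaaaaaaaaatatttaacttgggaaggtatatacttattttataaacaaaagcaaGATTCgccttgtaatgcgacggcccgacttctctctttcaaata
HHO2: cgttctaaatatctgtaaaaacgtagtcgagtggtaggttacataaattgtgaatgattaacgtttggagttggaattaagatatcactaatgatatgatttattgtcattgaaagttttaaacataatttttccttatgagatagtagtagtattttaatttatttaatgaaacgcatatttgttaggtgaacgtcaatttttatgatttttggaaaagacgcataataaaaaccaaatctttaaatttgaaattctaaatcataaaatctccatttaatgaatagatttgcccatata
HHO3: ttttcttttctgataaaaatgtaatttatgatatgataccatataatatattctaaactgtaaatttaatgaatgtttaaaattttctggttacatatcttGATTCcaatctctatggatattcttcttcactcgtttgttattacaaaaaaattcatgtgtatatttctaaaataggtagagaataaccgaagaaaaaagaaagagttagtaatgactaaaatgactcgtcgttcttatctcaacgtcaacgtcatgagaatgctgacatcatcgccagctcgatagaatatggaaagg
LBD37: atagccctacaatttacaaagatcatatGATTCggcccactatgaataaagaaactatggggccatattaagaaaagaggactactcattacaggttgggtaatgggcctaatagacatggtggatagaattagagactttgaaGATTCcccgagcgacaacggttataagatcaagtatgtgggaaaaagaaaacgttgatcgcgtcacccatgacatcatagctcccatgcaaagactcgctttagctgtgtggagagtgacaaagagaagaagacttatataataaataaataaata

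GAATC on either strand was in the promoters of 9 of the 10 members, all but HHO2, and in 45% of the 27384 promoters of this length that could be read. GAATATTC was in the promoters of HRS1 and HHO1 and in 1.0% of all promoters. The longest run shared by these 2 promoters was GGAATATTCACCACT, of 15 bases. It was picked from this pair, so its presence in both was fixed by the search, and no other of the 27384 promoters held it. The paired letters of the nitrate-responsive element bound by NLP proteins (CTT and AAG, 10 bases apart) were in 0 of the 10 and in 9.7% of all. A match is a description of letters, and its absence says only that they are not in this window.

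Imbibition was examined by comparing water with dry seeds. It moved most of the members, in opposite directions: LBD37, LBD38 and HHO3 rose in all 4 genotypes, HHO2 fell in all 4, and LBD39 and the NLP genes passed in some genotypes and not in others. Of the 8 members, 4 rose and 2 fell in cyp-labelled seeds (of all loci 40.8% rose and 38.9% fell, 79.7% together), 6 rose and 1 fell in myb-labelled seeds (34.8% and 31.3%, 66.2% together), 5 rose and 1 fell in qko-labelled seeds (36.9% and 32.2%, 69.0% together), and 5 rose and 2 fell in WT (37.1% and 33.5%, 70.6% together). "Rose" and "fell" mean an adjusted p under 0.05 in edgeR's quasi-likelihood test over all 18066 loci. With most loci changing, a change of a member was no exception. The median log2 fold change of the 8 members was 1.12 in cyp, 1.22 in myb, 0.97 in qko and 0.69 in WT, against medians over all loci of 0.04, 0.07, 0.09 and 0.08 in that order of genotypes. With total-count scaling the medians over all loci were 0.78, 0.75, 0.81 and 0.83, a shift that moves every log2 value of this comparison up. The split of all loci then was 10908 higher and 4124 lower in cyp, 11000 and 2543 in myb, 11605 and 2574 in qko and 11609 and 2460 in WT. In bulk RNA of whole seeds, fewer cells of a type and less RNA per cell cannot be told apart.

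LBD37, which represses nitrogen-responsive genes, was close to absent from dry seeds and clearly present after imbibition. In water it had 3.69, 5.26 and 3.54 CPM in cyp-labelled seeds, 5.92, 7.65 and 4.86 CPM in myb-labelled seeds, 4.03, 3.81 and 4.51 CPM in qko-labelled seeds and 4.48, 4.40 and 6.34 CPM in WT. In dry seeds it had 0 to 0.112 CPM in cyp, 0.133 and 0.375 CPM in myb, 0 to 0.207 CPM in qko and 0 to 0.215 CPM in WT, 0 to 6 counts per library. The groups did not overlap in any genotype. The ratio of summed counts in water over dry, each sum divided by its summed effective library sizes, was 56.9 in cyp (95% exact counting interval 22.1 to 210.0), 23.8 in myb (12 to 55.4), 35.2 in qko (14.9 to 109) and 52.8 in WT (20.5 to 195), and the adjusted p of edgeR was at most 1.00e-10. The sums were 388 and 4 counts in cyp, 457 and 8 in myb (3 libraries in water, 2 dry), 286 and 5 in qko and 364 and 4 in WT.

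LBD38, its paralogue, rose as well but on few counts. It had 5 to 15 counts per library in water over the mutants and 4 to 7 in WT, against 0 to 5 in dry seeds of the mutants and 0 to 1 in dry WT seeds. The same ratio of sums scaled to library size was 6.16 in cyp-labelled seeds (1.51 to 54.2), 3.08 in myb-labelled seeds (1.21 to 10.0), 4.19 in qko-labelled seeds (1.63 to 13.7) and 9.87 in WT (1.55 to 412.5), intervals that cover counting error only. The sums were 21 and 2 counts in cyp, 37 and 5 in myb, 34 and 5 in qko and 17 and 1 in WT. The adjusted p was 0.00965 in cyp, 0.0425 in myb, 0.00703 in qko and 0.00972 in WT. The call was lost in cyp without replicate 9 of the dry seeds (0.0512), in qko without replicate 4 of the dry seeds (0.0529), and in myb without replicate 9 of the dry seeds, replicate 6 in water or replicate 9 in water (up to 0.531). Without replicate 9 of dry myb the log2 fold change was 0.55, against 1.59 with it. In myb the call was also lost with DESeq2 (0.0639), without the filter (0.0614) and in the fit of the compared groups alone (0.0751).

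LBD39, the remaining LOB domain repressor, rose in 3 of the genotypes with TMM scaling and in all 4 with total-count scaling. In cyp it had 4.11, 6.28 and 3.64 CPM in water, against 0.318, 0.277 and 0.447 CPM in dry seeds, a log2 fold change of 3.73 (SE 0.39, adjusted p = 1.06e-10). The sums in cyp were 435 counts in water and 19 in dry seeds. In seeds labelled myb it had 4.04, 5.82 and 4.31 CPM in water, against 1.39 and 1.44 CPM in dry seeds, a gain of 1.73 (SE 0.37, adjusted p = 9.92e-05). In WT it had 13.1, 11.6 and 13.6 CPM in water, against 4.36, 2.56 and 4.01 CPM in dry seeds (log2 fold change 1.81, SE 0.27, adjusted p = 2.80e-07). In qko the libraries overlapped, with 1.59, 1.55 and 2.68 CPM in water against 1.59, 1.3 and 1.79 CPM in dry seeds, and the test was not passed (log2 fold change 0.30, adjusted p = 0.448), whereas with total-count scaling it was (1.03, adjusted p = 0.00712).

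HHO2, a repressor of the phosphate and nitrate starvation genes, was the member that fell in every genotype. In cyp it had 8.89, 11.0 and 8.76 CPM in water, against 34.7, 33.5 and 36.3 CPM in dry seeds. In WT it had 23.8, 22.3 and 22.0 CPM in water, against 90.1, 89.9 and 96.5 CPM in dry seeds. The groups lay far apart in each genotype, and the log2 fold change was -1.87 in cyp-labelled seeds, -1.31 in myb-labelled seeds, -1.93 in qko-labelled seeds and -2.02 in WT (adjusted p of 1.57e-11 or less). With total-count scaling it was -1.13, -0.63, -1.20 and -1.27 in that order of genotypes and still passed in each.

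HHO3, its relative, went the opposite way. It had 3.47, 4.84 and 4.30 CPM in water in cyp-labelled seeds, against 0.689, 0.943 and 1.29 CPM in dry seeds, and 3.15, 3.37 and 4.76 CPM in water in WT, against 1.86, 1.78 and 2.55 CPM in dry seeds. The water libraries were all above the dry ones. The log2 fold change was 2.11 in cyp (SE 0.26, adjusted p = 4.67e-09), 1.85 in myb-labelled seeds (adjusted p = 4.20e-06), 1.85 in qko-labelled seeds (adjusted p = 6.62e-08) and 0.87 in WT (SE 0.25, adjusted p = 0.00243). HHO2 and HHO3 thus changed in opposite directions with water in all 4 genotypes under both scalings.

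**Figure D2:**
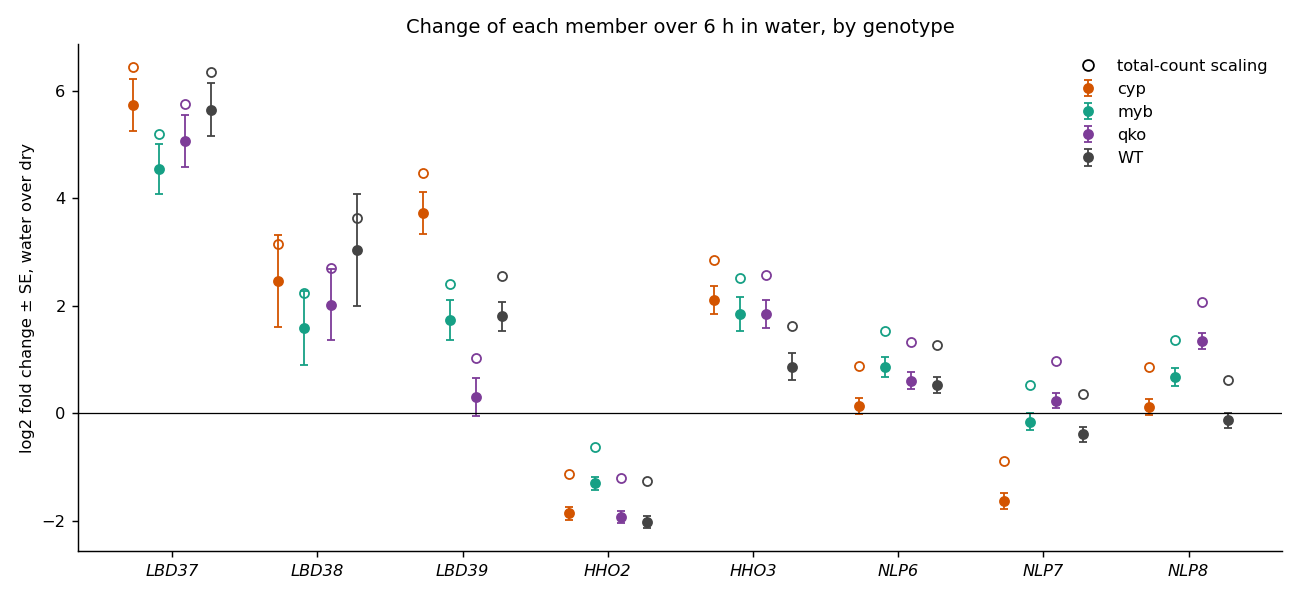
Log2 fold change of each tested member, 6 h in water over dry seeds, for cyp, myb, qko and WT; filled points with bars give the value with TMM scaling and its SE, open circles the value with total-count scaling. LBD37 is between 4.55 and 5.73 and HHO2 between -2.02 and -1.31, while NLP7 in myb-labelled seeds and WT and NLP8 in WT lie below 0 with TMM scaling and above 0 with total-count scaling.

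The NLP genes did not share a direction. NLP7, the nitrate-binding activator, had 22.1, 28.6 and 22.9 CPM in water in cyp-labelled seeds, against 75.1, 77.2 and 76.7 CPM in dry seeds, and fell by 1.64 on the log2 scale (SE 0.15, adjusted p = 3.47e-12; -0.90 with total-count scaling). In WT it had 69.5, 63.5 and 74.8 CPM in water, against 98.1, 81.6 and 93.3 CPM in dry seeds. That is a log2 fold change of -0.39 (adjusted p = 0.0166), which turned to 0.36 (adjusted p = 0.0174) with total-count scaling and was lost without replicate 5 of dry WT or replicate 8 of WT in water (adjusted p up to 0.0729). The log2 fold change was -0.16 in myb-labelled seeds, which turned to 0.52 (adjusted p = 0.00298) with total-count scaling, and 0.24 in qko-labelled seeds, and neither passed. In qko it passed as higher with total-count scaling (0.96, adjusted p = 9.93e-08) and with the replicate block (0.215, adjusted p = 0.0332). In qko the libraries of replicate 7 stand apart, and without them NLP7 rose by 0.31 (adjusted p = 0.0221).

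NLP8, which promotes germination in nitrate, rose in qko-labelled seeds and myb with TMM scaling. In qko it had 209, 191 and 154 CPM in water, against 72.9, 71.8 and 73.6 CPM in dry seeds, a log2 fold change of 1.34 (SE 0.15, adjusted p = 8.00e-10). In myb-labelled seeds it had 102, 94.6 and 118 CPM in water, against 64.0 and 67.5 CPM in dry seeds (0.68, adjusted p = 7.15e-04). In cyp and WT the log2 fold changes were 0.11 and -0.14 and did not pass, and with total-count scaling both passed as higher, at 0.85 in cyp (adjusted p = 1.73e-06) and 0.62 in WT (adjusted p = 2.40e-04). NLP6 rose in myb (0.86, adjusted p = 1.81e-04), qko (0.60, adjusted p = 0.00118) and WT (0.52, adjusted p = 0.00231), and its log2 fold change in cyp was 0.13 (adjusted p = 0.401), which passed with total-count scaling (0.87, adjusted p = 2.36e-06).

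NLP7 has 2 annotated transcripts, and the deposited estimates split its counts between them. The first codes for a protein of 959 residues and the second for 679. The second transcript took a smaller part of the NLP7 counts after imbibition: in water it made up 14.1% (12.5 to 16.4) in cyp-labelled seeds, 26.2% (18.3 to 33.3) in myb-labelled seeds, 21.2% (13.6 to 35.2) in qko-labelled seeds and 33.0% (30.7 to 37.1) in WT. The share in dry seeds was 49.1% (47.5 to 50.6) in cyp, 51.1% (47.4 to 54.9) in myb, 49.8% (39.0 to 55.5) in qko and 43.5% (39.5 to 48.9) in WT. Water and dry libraries did not overlap in any of the 4 genotypes. The split between transcripts of a locus is the estimator's and has no test here.

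**Figure D3:**
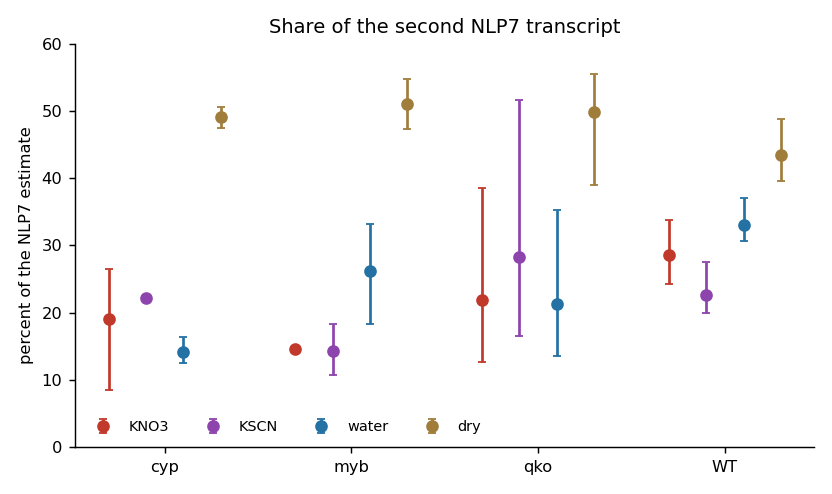
Share of NLP7 counts assigned to its second annotated transcript, in percent, for the 16 groups (KNO3, KSCN, water and dry within the genotypes cyp, myb, qko and WT). Points are group means and bars run from the lowest to the highest library. Dry groups average 43.5 to 51.1% and water groups 14.1 to 33.0%.

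Whether KNO3 moves these genes was asked by comparing KNO3 with water. KNO3 brings potassium and a salt load along with nitrate, and no group held a potassium salt without nitrate at the same dose. The changes below are therefore those with KNO3, and the part of nitrate alone in them was not tested. LBD37, HHO3 and HHO2 rose in cyp-labelled seeds, 3 of 8 members, where 1.14% of all loci rose and 0.841% fell (1.98% together, or 158 and 179 loci with total-count scaling). No member fell at an unadjusted p under 0.05. In myb-labelled seeds, qko and WT no member passed, and neither did any other locus (0.0% called by edgeR in each). At an unadjusted p under 0.05 there were 291 loci and 0 members in myb, 556 loci and 1 member in qko-labelled seeds and 366 loci and 1 member in WT, the 1 member being LBD37 in both. DESeq2 called 552 loci in cyp, 0 in myb, 1 in qko and 2 in WT.

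LBD37 had 9.33, 13.6 and 12.4 CPM in KNO3 in cyp-labelled seeds, against 3.69, 5.26 and 3.54 CPM in water. The groups did not overlap, and the fold was 2.83 (log2 fold change 1.5, SE 0.23, adjusted p = 1.68e-04). In qko-labelled seeds it had 5.32, 6.97 and 7.03 CPM in KNO3, against 4.03, 3.81 and 4.51 CPM in water, which also did not overlap (log2 fold change 0.64, 95% interval 0.18 to 1.11, adjusted p = 1.0). In WT it had 6.54, 10.4 and 5.38 CPM in KNO3, against 4.48, 4.40 and 6.34 CPM in water, with overlap (0.55, 0.10 to 1.01). In myb-labelled seeds it had 5.67 and 6.4 CPM in KNO3, against 5.92, 7.65 and 4.86 CPM in water (-0.02, -0.53 to 0.48).

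HHO3 had 8.45, 9.77 and 10.0 CPM in KNO3 in cyp-labelled seeds, against 3.47, 4.84 and 4.30 CPM in water, a fold of 2.24 (log2 fold change 1.16, SE 0.20, adjusted p = 6.44e-04). HHO2 had 14.7, 17.3 and 16.4 CPM in KNO3 in cyp, against 8.89, 11.0 and 8.76 CPM in water, a fold of 1.69 (log2 fold change 0.76, SE 0.12, adjusted p = 2.19e-04). Both sets of libraries were fully apart. KNO3 thus moved HHO2 in cyp in the direction opposite to that of imbibition, and HHO3 in the same direction. LBD39 had 5.98, 8.44 and 10.8 CPM in KNO3 in cyp, against 4.11, 6.28 and 3.64 CPM in water, with overlap, and did not pass (0.85, SE 0.24, adjusted p = 0.0616). It passed with DESeq2 (adjusted p = 0.0449), with the replicate block (0.00620), without replicate 6 of cyp in KNO3 (0.00525) and without replicate 8 of cyp in water (0.0133). LBD38 did not pass (1.04, SE 0.47, adjusted p = 0.259). The NLP genes did not pass either, with log2 fold changes of 0.41 for NLP6, 0.14 for NLP7 and 0.01 for NLP8 (95% interval of NLP8 -0.28 to 0.29). NLP6 passed with the replicate block (0.49, adjusted p = 0.0177), without replicate 6 of cyp in KNO3 (0.56, 0.00588) and without replicate 8 of cyp in water (0.52, 0.0424). With DESeq2 NLP6 did not pass (0.40, adjusted p = 0.104).

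The calls in cyp held without its imbibed replicate 8 libraries, with log2 fold changes of 1.66 for LBD37, 1.23 for HHO3 and 0.86 for HHO2. They were lost when the fit held the 6 libraries of cyp in KNO3 and in water alone (adjusted p of 0.50 for LBD37 and HHO3 and 0.539 for HHO2), a fit in which no locus passed and the log2 fold changes were 1.51, 1.17 and 0.76. The storage and oil body markers took 2.13 to 3.74% of counts in KNO3 and 1.98 to 3.04% in water in cyp-labelled seeds, and 0 of 12 passed by edgeR or DESeq2, with 4 at an unadjusted p under 0.05, all higher. The green tissue markers took 0.00631 to 0.0163% in KNO3 and 0.0115 to 0.0183% in water, and the seed coat markers at most 0.00192%. The part of other cell types in the result was not tested.

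**Figure D4:**
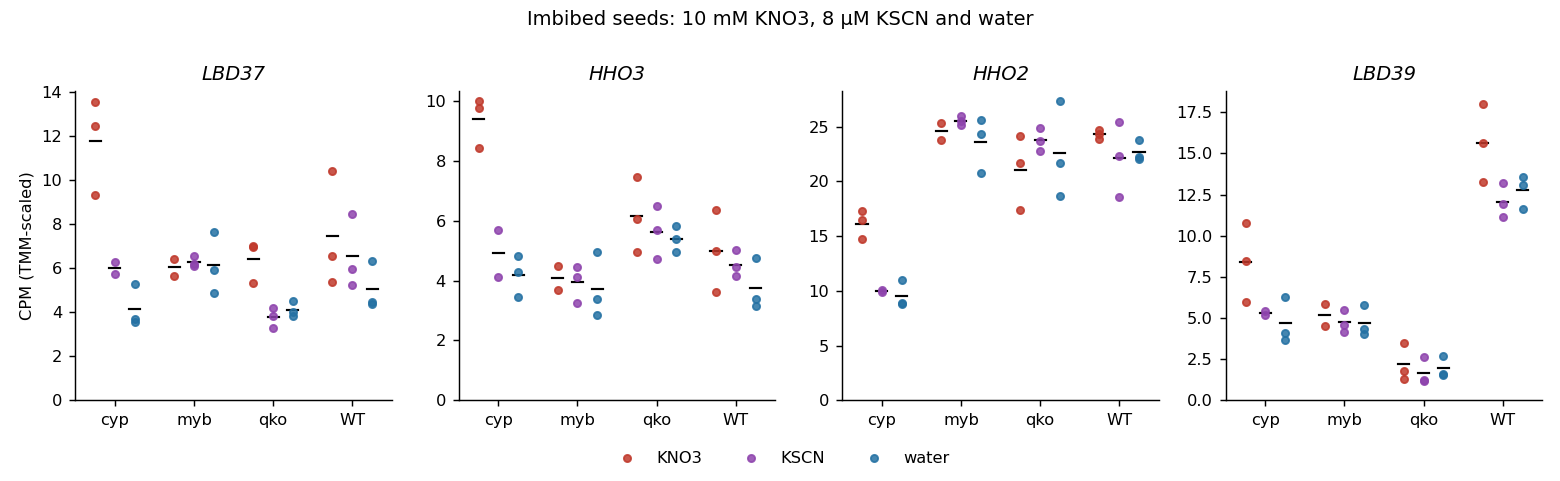
CPM of LBD37, HHO3, HHO2 and LBD39 in KNO3, KSCN and water for cyp, myb, qko and WT; points are libraries. In cyp the KNO3 libraries of LBD37, HHO3 and HHO2 lie above the KSCN and water libraries, with LBD37 at 9.33 to 13.6 CPM in KNO3 and 3.54 to 5.26 CPM in water.

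A response shared by the genotypes was asked for with the mean over the 4. LBD37 was the only member to pass (log2 fold change 0.67, SE 0.12, adjusted p = 0.0139), where 0.138% of all loci rose and 0.0111% fell (0.149% together). HHO3 followed at 0.47 (adjusted p = 0.0533), LBD39 at 0.36 (adjusted p = 0.681) and HHO2 at 0.20 (adjusted p = 0.310). The call of LBD37 was lost without replicate 7 of cyp in KNO3, replicate 9 of cyp in water or replicate 9 of myb in KNO3 (adjusted p up to 0.0549), and in the mean without cyp, a comparison chosen after seeing the data (0.39, SE 0.14, adjusted p = 1.0).

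Whether cyp responded more than WT was tested as a difference of responses, and no member passed (0.0% of loci by edgeR, and 0 members by DESeq2). At an unadjusted p under 0.05 there were 1059 loci and 4 members. The difference was 0.94 for LBD37 (95% interval 0.31 to 1.58, adjusted p = 0.532), 0.75 for HHO3 (0.18 to 1.32, adjusted p = 0.672) and 0.66 for HHO2 (0.34 to 0.98, adjusted p = 0.322). Against the mean response of myb, qko and WT, a comparison chosen after seeing the data, HHO2 gained 0.74 more in cyp-labelled seeds (SE 0.13, adjusted p = 0.00807), where 0.172% of loci passed upwards and 0.155% downwards (0.327% together, or 27 and 47 loci with total-count scaling). That call was lost without replicate 7 of cyp in KNO3, replicate 7 of cyp in water or replicate 9 of cyp in water (adjusted p up to 0.0957). LBD37 at 1.11 (adjusted p = 0.0511) and HHO3 at 0.92 (adjusted p = 0.0758) did not pass.

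Thiocyanate at 8 µM moved no member beyond the test in any genotype (0.0% of loci called by edgeR in each, and 0 by DESeq2). At an unadjusted p under 0.05 there were 339 loci and 1 member in cyp-labelled seeds, 2270 and 2 in myb-labelled seeds, 742 and 0 in qko-labelled seeds and 173 and 0 in WT. In the mean over the genotypes no member passed either, with 1682 loci and 2 members, NLP6 and NLP8, at an unadjusted p under 0.05. LBD37 had 5.72 and 6.28 CPM in KSCN in cyp, against 3.69, 5.26 and 3.54 CPM in water, a difference of 0.53 on the log2 scale (95% interval 0.03 to 1.02, adjusted p = 1.0). In WT it had 5.24, 5.95 and 8.48 CPM in KSCN against 4.48, 4.40 and 6.34 CPM in water (0.37, -0.08 to 0.83). NLP6 and NLP7 were each 0.32 higher in KSCN than in water in myb (95% intervals 0.03 to 0.61 and 0.03 to 0.60, adjusted p = 0.370 and 0.372). The doses of KNO3 and KSCN differ, so the 2 salts are not compared with each other.

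Each mutant was set against WT in dry seeds to ask how the lines differ before imbibition. All calls of members were downward. In cyp 3 of 8 were lower and 0 higher (13.4% and 16.1% of all loci, 29.4% together), in myb 5 and 0 (17.3% and 20.6%, 38.0% together) and in qko 3 and 0 (23.5% and 25.4%, 49.0% together). These splits of all loci depend on the scaling: with total-count scaling 561 loci were lower and 8650 higher in cyp, and 2149 and 4900 in myb-labelled seeds. No member was higher at an unadjusted p under 0.05 in edgeR or at an adjusted p under 0.05 in DESeq2. LBD39 was lower in all 3 lines, NLP8 and NLP6 in myb and qko, and HHO2 and HHO3 in cyp-labelled seeds and myb.

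LBD39 had 0.318, 0.277 and 0.447 CPM in cyp-labelled seeds, 1.39 and 1.44 CPM in myb-labelled seeds and 1.59, 1.3 and 1.79 CPM in qko-labelled seeds, against 4.36, 2.56 and 4.01 CPM in WT. Every mutant library was below every WT library, and the log2 fold change was -3.37 in cyp (SE 0.42, adjusted p = 1.83e-07), -1.36 in myb (adjusted p = 0.00539) and -1.22 in qko (adjusted p = 0.00324). NLP8 had 64.0 and 67.5 CPM in myb and 72.9, 71.8 and 73.6 CPM in qko, against 192, 184 and 179 CPM in WT. It was lower by 1.49 in myb (adjusted p = 1.65e-08) and 1.34 in qko (adjusted p = 2.86e-09) on the log2 scale, and cyp, with 163, 168 and 166 CPM, did not pass (-0.16, and 0.22 with total-count scaling). NLP6 had 2.25 and 2.81 CPM in myb and 3.55, 3.64 and 3.31 CPM in qko, against 5.94, 5.04 and 6.05 CPM in WT (-1.16, adjusted p = 1.10e-05, and -0.70, adjusted p = 6.72e-04).

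HHO2 had 34.7, 33.5 and 36.3 CPM in dry seeds of cyp and 59.5 and 57.2 CPM in myb-labelled seeds, against 90.1, 89.9 and 96.5 CPM in WT, with log2 fold changes of -1.40 (SE 0.11, adjusted p = 1.78e-11) and -0.66 (SE 0.12, adjusted p = 6.00e-05). In qko HHO2 had 87.7, 81.6 and 88.3 CPM, all below WT, and did not pass (-0.10, 95% interval -0.32 to 0.11). HHO3 was lower in cyp-labelled seeds (-1.08, adjusted p = 0.00646) and myb (-1.0, adjusted p = 0.0232). Those calls were lost without replicate 9 of dry WT in both (adjusted p = 0.0508 in cyp), and in myb also without replicate 5 or replicate 9 of dry myb (up to 0.154). Of the 12 storage markers 11 in cyp, 9 in myb and 9 in qko were lower in the same dry seeds (13.4%, 17.3% and 23.5% of all loci). The green tissue markers took 0.00351 to 0.00407% of counts in cyp and 0.00211 to 0.00292% in WT. The part of these markers in the differences was not tested.

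In imbibed seeds the same question gave 0 members higher and 4 lower in cyp-labelled seeds (31.2% and 31.9% of loci, 63.1% together), 0 and 3 in myb-labelled seeds (17.9% and 17.7%, 35.6% together) and 2 and 2 in qko-labelled seeds (25.8% and 24.9%, 50.7% together) by edgeR, and the same numbers by DESeq2. With total-count scaling 8957 loci were higher and 3391 lower in cyp, and 3854 and 2507 in myb. At an unadjusted p under 0.05 the members higher numbered 0 in cyp and 1 in myb, LBD38. LBD39 and NLP6 were lower in all 3 lines. LBD39 had 4.11, 6.28 and 3.64 CPM in cyp, 4.04, 5.82 and 4.31 CPM in myb and 1.59, 1.55 and 2.68 CPM in qko, against 13.1, 11.6 and 13.6 CPM in WT. No mutant library reached the WT range, and the log2 fold change was -1.45 in cyp (adjusted p = 4.06e-06), -1.43 in myb (adjusted p = 1.93e-05) and -2.72 in qko (SE 0.27, adjusted p = 2.42e-10).

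NLP7 and HHO2 were lower in water in cyp-labelled seeds. NLP7 had 22.1, 28.6 and 22.9 CPM in cyp, against 69.5, 63.5 and 74.8 CPM in WT (-1.5, SE 0.15, adjusted p = 1.40e-10). In dry seeds, at 75.1, 77.2 and 76.7 CPM in cyp and 98.1, 81.6 and 93.3 CPM in WT, it did not pass (-0.25, adjusted p = 0.198, and 0.13 with total-count scaling). It passed there as lower in the fit of the compared groups alone (-0.26, adjusted p = 0.00437). In dry myb seeds NLP7 did not pass in the main test either. It passed there as lower with DESeq2 (-0.41, adjusted p = 0.0408), the replicate block (-0.41, 0.0143) and the compared groups alone (-0.40, 0.00100). HHO2 had 8.89, 11.0 and 8.76 CPM in cyp, against 23.8, 22.3 and 22.0 CPM in WT (-1.25, SE 0.12, adjusted p = 3.07e-11), and in myb-labelled seeds and qko its log2 fold changes were 0.05 (95% interval -0.17 to 0.27) and -0.01 (-0.23 to 0.21). NLP6 was lower by 0.53 in cyp (adjusted p = 0.00140), 0.82 in myb (adjusted p = 2.41e-05) and 0.61 in qko-labelled seeds (adjusted p = 5.26e-04), and total-count scaling ended the cyp call (-0.16, adjusted p = 0.332). That scaling also put HHO3 (0.53, adjusted p = 0.0215) and NLP8 (0.46, adjusted p = 0.00520) past the threshold in cyp.

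NLP8 in water was lower in myb-labelled seeds, with 102, 94.6 and 118 CPM, against 164, 146 and 194 CPM in WT (-0.68, SE 0.15, adjusted p = 4.30e-04). In qko NLP7 had 107, 99.5 and 73.8 CPM, against 69.5, 63.5 and 74.8 CPM in WT, and passed as higher (0.43, adjusted p = 0.0128) although the libraries overlap. It was lost without replicate 8 of WT or replicate 4 of qko (adjusted p up to 0.0908), and it was 0.57 (adjusted p = 4.51e-05) without the libraries of qko replicate 7. HHO3 in qko-labelled seeds (0.52, adjusted p = 0.0389) was lost without replicate 5 or 8 of WT or replicate 4 or 6 of qko (up to 0.163), without the filter (0.0542), in the fit of these groups alone (0.0523) and with the replicate block (0.43, adjusted p = 0.155). In water the storage markers took 1.98 to 3.04% of counts in cyp-labelled seeds and 11.3 to 11.5% in WT. Of these markers 12 of 12 were lower in cyp, 10 in myb and, for qko, 9 (31.9%, 17.7% and 24.9% of all loci). The green tissue markers took 0.0115 to 0.0183% in cyp and 0.00143 to 0.00192% in WT, without overlap, and the seed coat markers 0.00120 to 0.00136% in cyp and 0.00101 to 0.00119% in WT. The part of these markers in the differences was not tested.

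**Figure D5:**
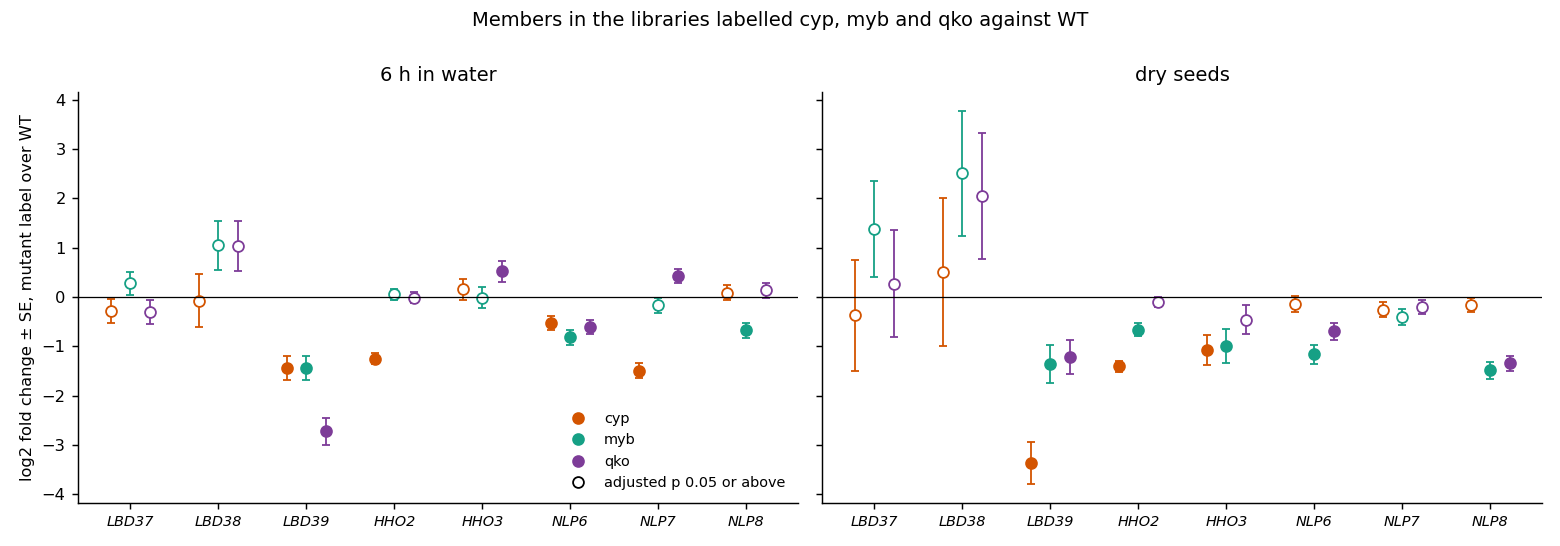
Log2 fold change of each tested member in the lines labelled cyp, myb and qko over WT, in 6 h water (left) and in dry seeds (right), with SE; filled points have an adjusted p under 0.05. LBD39 is below 0 and filled in all 6 comparisons, from -3.37 to -1.22, and NLP7 in cyp is at -1.5 in water and -0.25 in dry seeds; with total-count scaling NLP6, NLP7 and NLP8 in dry cyp seeds are above 0 (0.24, 0.13 and 0.22).

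Whether a line responded to imbibition otherwise than WT was tested directly, as a difference of 2 log2 fold changes. In cyp it was above 0 for 2 members and below for 1 (12.3% and 22.8% of loci, 35.2% together), in myb for 2 and 0 (5.39% and 6.14%, 11.5% together, or 749 and 1424 loci with total-count scaling) and in qko for 3 and 1 (14.1% and 13.6%, 27.7% together). LBD39 gained 1.92 more on the log2 scale in cyp-labelled seeds (SE 0.52, adjusted p = 0.00350) and 1.51 less in qko-labelled seeds (log2 difference -1.51, SE 0.45, adjusted p = 0.0106). LBD39, at 0.277 to 0.447 CPM in dry cyp seeds and 1.55 to 2.68 CPM in imbibed qko seeds, was below WT in both lines at both stages. NLP8 gained 1.48 more in qko (SE 0.21, adjusted p = 1.64e-06) and 0.81 more in myb-labelled seeds (adjusted p = 0.0139, and 0.0860 without replicate 5 of dry myb).

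NLP7 fell more in cyp than in WT (log2 difference -1.24, SE 0.21, adjusted p = 1.23e-05), and HHO3 gained 1.24 more in cyp-labelled seeds (SE 0.37, adjusted p = 0.00824). HHO2 fell less in myb-labelled seeds (0.71, SE 0.17, adjusted p = 0.00400). In qko NLP7 (0.63, adjusted p = 0.0202) and HHO3 (0.98, adjusted p = 0.0407) also passed, and both were lost without single libraries. For NLP7 these were replicate 5 of dry WT, replicate 8 of WT in water, replicate 7 of dry qko and replicate 4 of qko in water (adjusted p up to 0.0701). For HHO3 they were replicate 9 of dry WT, replicates 5 and 8 of WT in water, replicates 6 and 7 of dry qko and replicates 4 and 6 of qko in water (up to 0.144). These comparisons share the WT libraries.

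The enzymes and carriers that nitrate induces give the downstream side of the response. Of 16 such genes 14 were tested, and 12 rose and 0 fell in cyp-labelled seeds with KNO3 (1.14% and 0.841% of all loci). The median log2 fold change of the 14 was 1.15, against -0.01 over all loci. Among those that rose were the ferredoxin-NADP reductase gene RFNR2 (1.91, adjusted p = 6.36e-04), the nitrite reductase gene NIR1 (1.85, adjusted p = 4.67e-04) and the nitrate reductase gene NIA1 (1.78, adjusted p = 8.14e-04). In myb-labelled seeds, qko and WT 0 of the 14 passed by edgeR, with medians of -0.004 in myb, 0.105 in qko-labelled seeds and 0.556 in WT. At an unadjusted p under 0.05 there were 0 in myb, 1 in qko and 8 in WT, all higher. Of all 18066 loci 291, 556 and 366 were under it in that order of genotypes. DESeq2 called 0, 0 and 2 of these genes in the same order, against 0, 1 and 2 of all loci. In dry seeds 2 of the 14 were higher and 10 lower in myb than in WT (20.6% and 17.3% of all loci), and 2 and 10 in qko (25.4% and 23.5%). NIA2 was at -3.61 (adjusted p = 6.76e-06) in myb and -7.02 (adjusted p = 5.11e-09) in qko. In dry cyp seeds 7 were higher and 2 lower (16.1% and 13.4% of all loci). NLP8 and NLP6 were also low in dry myb and qko seeds, and a link between them and these enzymes and carriers was not tested.

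Of 12 relatives in the same families 11 were tested. With KNO3 in cyp, where 1.14% of all loci rose, 2 rose, NLP3 (1.39, adjusted p = 0.00219) and LBD41 (0.66, adjusted p = 0.0356). NLP3 also passed in the mean over the 4 genotypes (0.67, adjusted p = 0.0365). With imbibition 5 of these relatives rose and 2 fell in cyp-labelled seeds (40.8% and 38.9% of all loci) and 6 and 3 in myb-labelled seeds (34.8% and 31.3%). In qko-labelled seeds 6 rose and 2 fell (36.9% and 32.2%), and in WT 8 and 2 (37.1% and 33.5%). NLP1 rose in each genotype, by 2.24 in cyp, 2.66 in myb, 3.43 in qko and 2.21 in WT. HHO5 was lower in cyp than in WT (-1.21 in dry seeds, -1.57 in water) and higher in myb (0.91 and 1.09) and qko (1.29 and 1.37). Of 18 other nitrate signalling genes 17 were tested, and 3 rose with KNO3 in cyp, the bZIP factor genes TGA1 (0.71, adjusted p = 0.00474) and TGA4 (0.50, adjusted p = 3.96e-04) and the kinase gene CIPK23 (0.34, adjusted p = 0.0466).

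Targets known to be repressed by the members were examined too. Of 5 genes repressed by HRS1 and HHO proteins 4 were tested. With imbibition 1 rose and 3 fell in cyp-labelled seeds, 0 and 4 in myb-labelled seeds, 0 and 3 in qko-labelled seeds and 0 and 4 in WT. These counts were the same by edgeR and by DESeq2. Of all loci 40.8% rose and 38.9% fell in cyp, 34.8% and 31.3% in myb, 36.9% and 32.2% in qko and 37.1% and 33.5% in WT by edgeR. The median log2 fold change of the 4 genes was -1.49 in cyp, -1.29 in myb, -1.62 in qko and -1.15 in WT. The nitrate carrier gene NRT2.5 fell by 1.67 in WT (adjusted p = 6.81e-12) while HHO2 fell and HHO3 rose. SPX1, a phosphate sensor gene, was higher than in WT in dry seeds of myb (3.60, adjusted p = 9.94e-13) and qko (4.81, adjusted p = 1.02e-16), and in water in cyp (1.33, adjusted p = 4.41e-05), myb (2.16, adjusted p = 3.35e-08) and qko (3.56, adjusted p = 1.33e-13). Of 8 anthocyanin genes repressed by LBD37 to LBD39 only 4 passed the filter on low counts. The flavanone hydroxylase gene F3H, 1 of these 4, was lower than in WT in dry seeds of cyp (-1.69), myb (-1.92) and qko (-3.45). LBD39 was also lower in these lines, and a link was not tested. With KNO3 or KSCN 0 of the 4 passed in any genotype by edgeR or DESeq2. At an unadjusted p under 0.05 there was 1, in cyp with KNO3 and lower.

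The loci whose profile over the 16 group means was most like that of a member are given as a description, since all points share the large step between dry and imbibed seeds. For LBD37 they were Hsp70-2 (Pearson r = 0.985), AT1G06450 (0.983) and AT3G16560 (0.982), for LBD39 APC8 (0.955), AT5G10010 (0.951) and AT4G24820 (0.946), and for LBD38, on few counts, AT3G07480 (0.973). For HHO2 they were AT2G41945 (0.990), AT5G01010 (0.983) and AT3G22290 (0.975), and for HHO3 AT1G69250 (0.952), AT5G07870 (0.948) and the ethylene response factor gene ERF73 (0.946). For NLP7 they were the histone methyltransferase gene SDG14 (0.988), AT3G08505 (0.985) and the autophagy gene ATG18a (0.984), for NLP6 XRCC3 (0.960), UPL7 (0.958) and AT1G29950 (0.935), and for NLP8 GMI1 (0.954), the allantoate amidohydrolase gene AAH (0.95) and EMF1 (0.927). Among the members themselves the closest pair was LBD37 and HHO3 (0.913), followed by NLP6 and NLP8 (0.818), and LBD37 and HHO2 ran opposite (-0.802).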

How the data were processed

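Whole seeds were profiled by RNA-seq with paired reads of 100 bases, per the labels. The values deposited by the authors are estimated counts per transcript from Salmon, per the submitters' processing notes; the Salmon version, the index and the build it came from were not given in the sources used here. The 48268 transcripts were summed by their locus ID and rounded to whole numbers, and 48072 of their IDs are in the RefSeq annotation of TAIR10.1, which gave names, exon lengths and promoters. Library totals were 18097331 to 22910834 counts. No 2 libraries held identical values.

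All 45 libraries and 16 groups were fitted in 1 model with edgeR 4.0.16 (quasi-likelihood F test, TMM scaling, R 4.3.3). The edgeR filter by group (minimum count 10, minimum total 15) kept 18066 loci and removed 9521. P-values were adjusted by Benjamini-Hochberg over all 18066, with 0.05 as the threshold, in 29 comparisons and 3 added after seeing the data. Adjusted p-values in the text are those of this test unless DESeq2 1.42.0 is named. Intervals of log2 values are the estimate ± 1.96 SE. CPM are counts per 1000000 of the TMM-scaled library, and intervals and floors of counts cover counting error only. The test was first run on simulated counts with known changes. Alternatives were total-count or DESeq2 scaling, DESeq2, no filter, robust estimation, the compared groups alone, a replicate block, and leaving out single libraries, the imbibed libraries of cyp replicate 8 or the libraries of qko replicate 7.

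The labels give replicate numbers. Same-numbered libraries were checked by correlating their deviations from the group means. In qko all 3 pairs exceeded 0.1 for KNO3 with water (0.338 to 0.562) and for KSCN with water (0.371 to 0.625). The data, not the labels, pair them there, and no other comparison with 3 pairs did. With fewer pairs the matter is not settled. For KNO3 with water WT had 0.189 and 0.236, and cyp 0.496 in replicate 8 and 0.0895 in replicate 7. For KSCN with water cyp replicate 8 had 0.442, and WT 0.117 and -0.0307. In myb the values were -0.0779 to 0.0781.

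All members are named throughout. Of each other list the text draws on the 3 loci per comparison with the largest change among those past the threshold and averaging at least 1 CPM, and for likeness on the 3 loci with the highest Pearson correlation over 16 group means of log2(CPM + 0.5). The examples among these were picked with their values in view. The members and lists were chosen with earlier results of these data known.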

Additional observations from a re-analysis of the deposited data

Results flagged for a closer look

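The response to imbibition (water over dry, log2 scale) differed between a mutant line and WT for 9 pairs of member and line, by the test of the difference itself in edgeR. These were 3 of the 8 members in cyp (35.2% of all loci passed), 2 in myb (11.5%) and 4 in qko (27.7%). All values are the response in the mutant minus that in WT.

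In cyp the difference was 1.922 for LBD39 (95% interval 0.91 to 2.93), 1.244 for HHO3 (0.52 to 1.97) and -1.243 for NLP7 (-1.65 to -0.84). In myb it was 0.713 for HHO2 (0.39 to 1.04) and 0.812 for NLP8 (0.37 to 1.25). In qko it was -1.505 for LBD39 (-2.38 to -0.63), 0.981 for HHO3 (0.27 to 1.69), 0.629 for NLP7 (0.23 to 1.03) and 1.478 for NLP8 (1.07 to 1.89).

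The response of LBD39 to imbibition therefore differed from that in WT in opposite directions in cyp and qko. The response of NLP7 did so too, but its call in qko was lost without any 1 of 4 single libraries (adjusted p up to 0.0701). The call of HHO3 in qko was lost without any 1 of 7 (up to 0.144). Without the libraries of qko replicate 7 the differences in qko were -1.71 for LBD39, 1.07 for HHO3, 0.71 for NLP7 and 1.59 for NLP8.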

How the results depend on the processing

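With total-count scaling in place of TMM, 3 changes from dry to imbibed seeds turned their sign: NLP8 in WT (0.616, adjusted p = 2.40e-04), NLP7 in WT (0.360, adjusted p = 0.0174) and NLP7 in myb (0.524, adjusted p = 0.00298). It also put past the threshold, as higher, NLP6 (0.875) and NLP8 (0.854) in cyp and NLP7 (0.963) and LBD39 (1.026) in qko. The number of members past the threshold moved by over 1.5 times in 4 comparisons. For KNO3 in cyp (3 members) it was 0 with the compared groups alone, where 0 of all loci passed, and 5 with the replicate block, where 2284 loci passed against 358. For the mean over the genotypes (1) it was 2 with DESeq2, without the filter, with the block or with total-count scaling (51 loci with DESeq2, 78 with the block and 29 with that scaling, against 27), and 0 with the compared groups alone or with cyp left out of the mean. For cyp against WT in dry seeds (3) it was 5 with the compared groups alone, where 8044 loci passed against 5319. For cyp minus the mean of the others in KNO3 (1) it was 3 with DESeq2 or the block, 2 without the filter or without qko replicate 7, and 0 with the compared groups alone (154 loci with DESeq2 and 1039 with the block, against 59). The cause was not tested.

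Leaving out 1 library at a time gave 3 to 5 members for KNO3 in cyp, 0 to 2 for the mean, 0 to 1 for cyp minus WT in KNO3 and 0 to 4 for cyp minus the mean of the others. It gave 2 to 4 for qko against WT in water, 1 to 2 for the imbibition response of myb minus WT and 2 to 4 for that of qko minus WT. Where that left 1 library in a group, it was taken to vary like the other groups. Single members past the threshold kept direction and call in 411 such fits and lost the call in 35. Under the other settings they kept both in 454 fits, lost the call in 14 and reversed in 1. With all libraries in, 1.98% of all loci passed for KNO3 in cyp and 0.149% for the mean. For cyp minus WT in KNO3 the share was 0.0%, and for cyp minus the mean of the others 0.327%. It was 50.7% for qko against WT in water, and 11.5% and 27.7% for the imbibition responses of myb and qko minus WT.

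With the replicate block, 0 members passed for KNO3 or KSCN in qko, where the data pair the numbers, as without it. For KNO3 with water the correlation was also 0.189 and 0.236 for replicates 5 and 8 of WT and 0.496 for replicate 8 of cyp. Whether the numbers pair libraries there is not settled. In other comparisons the block gave 7 members for imbibition in qko (6 without), where 13104 loci passed against 12474. For dry myb against WT it gave 6 (5 without), where 7195 loci passed against 6857. It gave 3 for qko against WT in water (4, HHO3 being lost), where 8490 loci passed against 9163. LBD38, with 346 counts in all libraries, LBD37 in dry seeds and LBD39 in dry cyp seeds, with 19 counts in 3 libraries, are limited by depth. HRS1 and HHO1 lie under the floor.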
